A study of Homo sapiens and Mus musculus with 30 samples.

Results

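Ribosome occupancy was compared between NIH3T3 cells carrying graded amounts of LIN28B and NIH3T3 cells at the lowest level. The comparison rests on 10 of the 30 libraries analysed, those of polysome RNA (RNA bound by ribosomes) and of total RNA from the mouse line, with 1 library of each fraction at levels X1, X2, X3, X4 and X0. NIH3T3 is an immortalised line of mouse embryonic fibroblasts, grown in DMEM with 10% serum. LIN28B increases from X1 to X4, and X0 is named as the knockout in the study's design. The NIH3T3 titles name no knockout and say only X0, and the design states that the mouse experiment followed the one in human HEK293A cells. Doxycycline at 10 ng/ml turned the transgenes on, and the sources used here do not say whether X0 cells received it. The design speaks of 2 replicates, while each level and fraction has 1 column of values, and whether replicates were pooled or a line is 1 clone is not given either.

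LIN28B is an RNA-binding protein of stem cells and tumours that keeps precursors of let-7 microRNAs from being processed and also binds many messenger RNAs directly. Messenger RNAs in translation carry several ribosomes and sediment with polysomes, so the ratio of polysome RNA to total RNA is read as ribosome occupancy. Transcripts of ribosomal proteins and elongation factors begin with a terminal oligopyrimidine (TOP) tract and are known for moving between free and polysomal pools as growth signals change.

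Values are RPKM (reads per kilobase of gene per 1e6 reads). Occupancy of a gene is log2(polysome RPKM + 0.5) minus log2(total RPKM + 0.5), and the difference is the mean of X1 to X4 minus X0. Of 41128 genes in the table, 10952 reached a mean of 1 RPKM over the 10 libraries. Just inside that limit was Cacna1g with a mean of 1.0004 RPKM, and just outside was Gm13033 with 0.99977 RPKM. Depth was 15.2 to 23.6 M recovered reads (M, 1e6) in total RNA and 15.6 to 20.4 M in polysome RNA. Of 13 fibroblast markers 12 reached 1 RPKM, while 0 of 10 epithelial and 0 of 7 endothelial markers did. The summed total RNA level of the fibroblast markers was 7652 to 8695 RPKM at X1 to X4 and 8603 RPKM at X0. The sum rests mainly on S100a4, with 5362 to 6428 RPKM at X1 to X4 and 4950 RPKM at X0, and on Vim, with 1221 to 1498 RPKM at X1 to X4 and 2994 RPKM at X0, so the markers did not all lie on one side of X0. Among 10 blood cell markers 2 reached 1 RPKM, and one of them, Hba-a1, encoding alpha globin, had 0.709 to 1.23 RPKM in total RNA at X1 to X4 and 6.40 RPKM at X0. Its part in the results was not tested. Mouse Lin28b had 1, 1, 1, 9 and 42 reads in total RNA and 1, 3, 4, 13 and 42 in polysome RNA from X0 to X4, and Lin28a 0 to 5 reads in any library. Whether the transgene carries mouse or human sequence is not given, so these reads are no measure of it.

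X0 stood apart from the other levels in both fractions. Total RNA at X1 to X4 differed from X0 by a standard deviation over genes of 0.53 to 0.62 (log2), against 0.24 to 0.36 among X1 to X4. In polysome RNA the same spread was 0.53 to 0.54 against X0 and 0.29 to 0.46 among X1 to X4. For occupancy it was 0.45 to 0.61 against X0 and 0.31 to 0.54 among X1 to X4, so these ranges overlap. X2 and X3 were farthest from X0 in occupancy and closest to each other, while X1 and X4 lay nearer to X0. Because X0 has 1 library per fraction, what sets it apart from the other levels cannot be told apart from the lowest LIN28B level itself.

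No gene passed in occupancy. With limma, 0 of 10952 genes (0%) had an adjusted p under 0.05, and the smallest adjusted p was 0.395. A count test with edgeR on recovered reads called 0 of 10948. At an unadjusted p under 0.05 there were 540 genes higher (4.93%) and 695 lower (6.35%) with limma, and 855 higher and 940 lower with edgeR. After centring of the libraries on their trimmed means the limma split became 770 higher and 445 lower. Without X2 there were 331 higher and 375 lower, without X3 359 and 333, and without X1 1195 and 1013. X0 is assumed to vary as X1 to X4 do, and the p-values measure only the spread between these libraries, which may be technical. That spread also holds any difference between the levels X1 to X4, which the fit takes as 1 group. For a single gene an exact permutation test of 4 values against 1 cannot go below 0.2 one-sided or 0.4 two-sided. In simulated data limma recovered 16% of genes changed by 1 log2 and edgeR 36%, so the absence of calls is no absence of change.

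Genes were therefore also described by whether all 4 levels lay on one side of X0, a rule added after the values were seen. All 4 levels were above X0 in 2583 genes (23.6%) and below in 3571 (32.6%). By at least 0.5 log2, all 4 were above X0 in 359 genes (3.28%) and below in 174 (1.59%). Leaving out X1 raised these last counts to 925 and 282, and leaving out X4 gave 304 genes below.

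Each fraction on its own did give calls. In total RNA 2562 genes (23.4%) passed, of which 1261 rose (11.5%) and 1301 fell (11.9%). In polysome RNA 576 genes (5.26%) passed, of which 304 rose (2.78%) and 272 fell (2.48%). Without X3 the total RNA count was 995, and the polysome count was 132 without X2, 229 without X3 and 342 without X4. The edgeR test split the polysome calls into 315 that rose and 536 that fell. Occupancy is computed from both fractions, so a gene's 3 differences are not independent of each other.

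Among the 359 genes with occupancy above X0 by 0.5 or more at every level, the median difference was -0.73 (log2) in total RNA and 0.43 in polysome RNA. In total RNA 169 of them fell and 2 rose, and in polysome RNA 15 rose and 1 fell. Among the 174 genes below X0 the medians were 0.38 in total RNA and -0.44 in polysome RNA. In total RNA 60 of these rose and 5 fell, and in polysome RNA 2 rose and 18 fell. Over all 10952 genes the medians were -0.03 and -0.01. Of these genes 1261 rose (11.5%) and 1301 fell (11.9%) in total RNA, and 304 rose (2.78%) and 272 fell (2.48%) in polysome RNA. Both sets were chosen on occupancy, which total RNA enters with a minus sign and polysome RNA with a plus sign. Their directions are therefore in part built into the choice.

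Cytosolic ribosomal proteins, elongation factors with other TOP genes, and initiation factors tended to lie above X0 in occupancy, although none passed. Other lists tied to translation did so less or not at all. Of 45 nucleolar ribosome biogenesis genes 15 lay above X0 at all 4 levels (33.3%, against 23.6% of all genes). Below were 13 (28.9%, against 32.6%), and the median difference was -0.08. Of 78 mitochondrial ribosomal proteins 7 lay above (8.97%) and 18 below (23.1%). Of 88 cytosolic ribosomal proteins 61 lay above X0 at all 4 levels (69.3%, against 23.6% of all genes) and 4 below (4.55%, against 32.6%). Their median difference was 0.20 (log2) against -0.04 over all genes. Like the other lists, that of 14 elongation factors and other TOP genes was written with earlier results of these data known. Its counts describe the genes and test nothing. All 14 were above X0 at all 4 levels (13 of them after centring), against 23.6% of all genes, with a median of 0.41. From X1 to X4 their medians against X0 were 0.52, 0.39, 0.43 and 0.48, so X1 already differed from X0 as much as X4 did. For the ribosomal proteins they were 0.34, 0.09, 0.11 and 0.28 at X1 to X4. In NIH3T3 the ribosomal protein transcripts had low occupancy values at every level. The median was -2.03, -2.20, -2.21 and -2.07 at X1, X2, X3 and X4 and -2.37 at X0, while over all genes it lay between 0.56 and 0.67.

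Single ribosomal proteins differed little in either fraction. Rps4x, a small-subunit protein, had 417, 558, 527, 506 and 503 RPKM in polysome RNA and 3040, 2690, 2917, 2712 and 2643 RPKM in total RNA from X0 to X4. Its polysome level was lowest at X0 and its total level highest there, and the occupancy difference was 0.48 ± 0.15 (SE, limma adjusted p = 0.437). Rpl23 and Rpl30 of the large subunit differed by 0.49 ± 0.13 and 0.47 ± 0.15. In total RNA 1 ribosomal protein rose (Rps21, 0.43) and 4 fell, against 2 and 1 after centring and 0 and 0 without X3. The shares were 1.14% and 4.55%, against 11.5% and 11.9% of all genes. In polysome RNA 1 rose (Rps25, 0.51). Rps21 was also one of the 4 with occupancy below X0 at every level. The call of Rps25 was lost without X2, X3 or X4, and that of Rps21 without X1, X2 or X3. Ribosomal protein genes have many processed pseudogenes, so their reads are uncertain where copies are near-identical.

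Npm1 encodes nucleophosmin, a nucleolar chaperone of ribosome assembly with a TOP transcript. It had 55.2, 55.3, 85.5, 114 and 75.0 RPKM in polysome RNA and 126, 48.4, 44.4, 54.5 and 53.3 RPKM in total RNA from X0 to X4. Total RNA was highest at X0 with no overlap, while polysome RNA at X1 was level with X0 and was highest at X3. Occupancy was -1.19 at X0 and 0.19, 0.94, 1.06 and 0.49 at X1 to X4, a difference of 1.86 ± 0.32 or 3.62-fold (limma adjusted p = 0.437). The fall in total RNA passed (-1.33, adjusted p = 0.00286) and the polysome difference did not (0.53, adjusted p = 0.365).

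Nap1l1, a histone chaperone, had a similar shape. Its polysome RNA was 20.3, 18.2, 27.2, 41.6 and 27.0 RPKM and its total RNA 41.9, 17.5, 15.9, 19.4 and 20.8 RPKM from X0 to X4. Polysome RNA overlapped between X0 and the other levels and total RNA did not. Occupancy differed by 1.59 ± 0.36 (limma adjusted p = 0.437), and total RNA fell by 1.17 (adjusted p = 0.00687). Hnrnpa1, a splicing regulator, differed in occupancy by 0.96 ± 0.22. Of the 14 genes, 6 fell in total RNA (42.9%, against 11.9% of all genes) and 0 rose. Without X3 5 fell, the one lost being Hnrnpa1, and none of the 14 was called in polysome RNA. Besides Npm1, Nap1l1 and Hnrnpa1, those that fell were Vim (-1.10), Tpt1 (-0.72) and Pabpc1 (-0.64), encoding vimentin, the translationally controlled tumour protein and the poly(A)-binding protein, named after their values were seen.

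Many initiation factors fell in total RNA. Of 33 measured, 14 fell in total RNA (42.4%, against 11.9% of all genes) and 0 rose, with 9 falling without X3. In polysome RNA 1 fell, which was Eif3c (3.03%, against 2.48% of all genes), and 0 rose. In occupancy 19 were above X0 at all 4 levels (57.6%, against 23.6% of all genes) and 6 below (18.2%, against 32.6%). The median over genes of the difference was 0.30, while the medians at single levels were lower, with 0.16, 0.17, 0.17 and 0.14 at X1 to X4. Eif3e, a subunit of the eIF3 complex that recruits the small ribosomal subunit, had 51.2, 55.8, 85.0, 104 and 72.2 RPKM in polysome RNA and 264, 131, 125, 131 and 140 RPKM in total RNA from X0 to X4. All 4 levels lay above X0 on polysomes and at about 0.5 of X0 in total RNA. Occupancy differed by 1.59 ± 0.32 (limma adjusted p = 0.437), and total RNA fell by 0.999 (adjusted p = 0.00297). Eif2s3x, the gamma subunit of eIF2 that holds the initiator tRNA complex, differed by 1.08 ± 0.34 in occupancy and fell by 1.11 in total RNA. Eif3m, another eIF3 subunit, differed by 0.80 ± 0.23 and fell by 0.60 in total RNA. Eif3a (-1.58) and Eif4a2 (-1.31) had the steepest falls in total RNA of this list; they and Eif3c, whose polysome call was lost without X2, X3 or X4, were named after their values were seen.

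**Figure D1:**
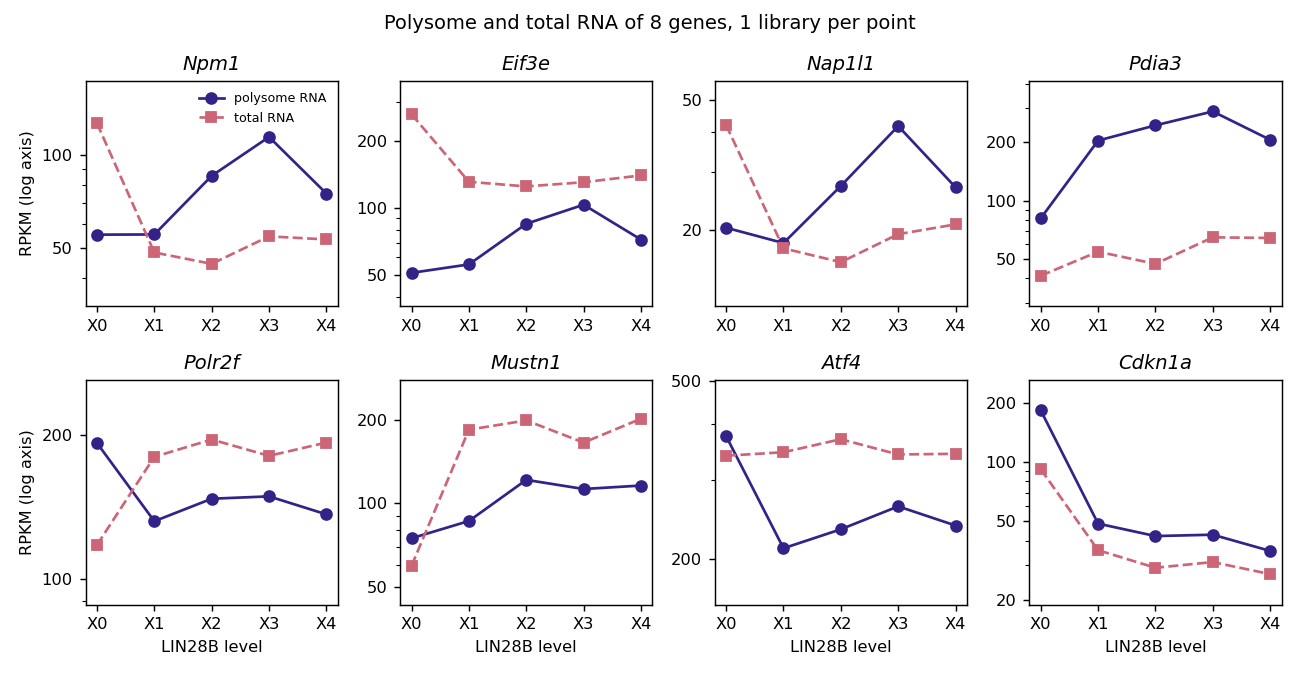
Polysome RNA (circles, solid line) and total RNA (squares, dashed line) in RPKM on log axes at levels X0 to X4 for 8 genes, 1 library per point and no error bar. For Npm1, Eif3e and Nap1l1 total RNA is highest at X0 and polysome RNA highest at X3; for Polr2f and Mustn1 total RNA is lowest at X0; for Cdkn1a both fractions are highest at X0.

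The TRiC chaperonin, which folds actin and tubulin, showed a related pattern in its 8 subunits. Occupancy was above X0 at all 4 levels in 6 (75%, against 23.6% of all genes) and below in 0, with a median of 0.43. In total RNA 4 subunits fell (50%, against 11.9%), and 3 without X2 or without X3. Cct4 had 69.2, 51.7, 56.2, 63.7 and 54.9 RPKM in polysome RNA and 106, 46.2, 52.7, 60.7 and 63.5 RPKM in total RNA from X0 to X4. Here both fractions were highest at X0, and total RNA was the more reduced, so that occupancy differed by 0.64 ± 0.18. Cct2 (0.46 ± 0.15) and Cct8 (0.55 ± 0.20) did the same, with total RNA differences of -0.92 and -0.81, which passed, the Cct8 call being lost without X2 or X3.

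Aminoacyl-tRNA synthetases and their scaffold proteins, which charge tRNAs for translation, fell in part in total RNA. Of 23, 10 fell in total RNA (43.5%, against 11.9% of all genes), with 3 falling without X3 and 5 without X1. In polysome RNA 3 fell (13%, against 2.48% of all genes), with 1 falling without X2 and 0 without X3. None rose in either. Occupancy lay above X0 at all levels in 8 (34.8%, against 23.6%) and below in 7 (30.4%, against 32.6%), with a median of -0.01. Aimp1, a scaffold of the synthetase complex, had an occupancy difference of 0.75 ± 0.20, Dars one of 1.05 ± 0.38 and Aars one of -0.56 ± 0.19, so members of one family lay on both sides of X0. Aars fell by 1.26 in polysome RNA (limma adjusted p = 0.028, lost without X3).

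Some genes of the endoplasmic reticulum rose in total RNA and fewer in polysome RNA. The list of 65 holds chaperones, translocon subunits and glycosylation enzymes that handle secreted and membrane proteins. In total RNA 30 rose (46.2%, against 11.5% of all genes) and 6 fell (17 and 4 without X3). In polysome RNA 18 rose (27.7%, against 2.78% of all genes) and 1 fell, which was Srp68, a protein of the signal recognition particle (11 rose without X2). The occupancy median was 0.08, against -0.04 over all genes. Occupancy was above X0 at all levels in 23 genes (35.4%, against 23.6% of all genes) and below in 13 (20%, against 32.6%). By 0.5 or more it was above in 7 (10.8%, against 3.28%), and 13 were higher at an unadjusted p under 0.05 (20%, against 4.93%), with none past the adjusted threshold.

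Within that list 2 chaperones of the lumen rose in polysome RNA and did not pass in total RNA. Pdia3, a protein disulfide isomerase of glycoprotein folding, had 81.3, 204, 244, 288 and 206 RPKM in polysome RNA and 41.2, 54.8, 47.4, 64.9 and 64.5 RPKM in total RNA from X0 to X4. Both fractions were lowest at X0, polysome RNA by the wider margin, with a rise of 1.51 (limma adjusted p = 0.0175) against 0.47 in total RNA (adjusted p = 0.0923). Its occupancy difference was 1.04 ± 0.25. Hspa5, encoding BiP, the main lumenal Hsp70, had 23.9, 56.6, 68.1, 98.1 and 68.0 RPKM in polysome RNA and 13.8, 14.5, 13.5, 20.0 and 23.7 RPKM in total RNA from X0 to X4. Polysome RNA rose by 1.56 (adjusted p = 0.0285, lost without X4), and total RNA at X2 lay just under X0. Occupancy of Hspa5 differed by 1.22 ± 0.31 and that of Dnajc3, its co-chaperone, by 1.36 ± 0.29. By contrast Calr, encoding calreticulin, rose by 1.14 in total RNA and 1.06 in polysome RNA, with an occupancy difference of -0.08 ± 0.13. Sdf2l1 and Manf, both known targets of the unfolded protein response, rose by 1.47 and 1.31 in total RNA and by 1.40 and 1.09 in polysome RNA. Calr, Sdf2l1 and Manf were named after their values were seen.

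**Figure D2:**
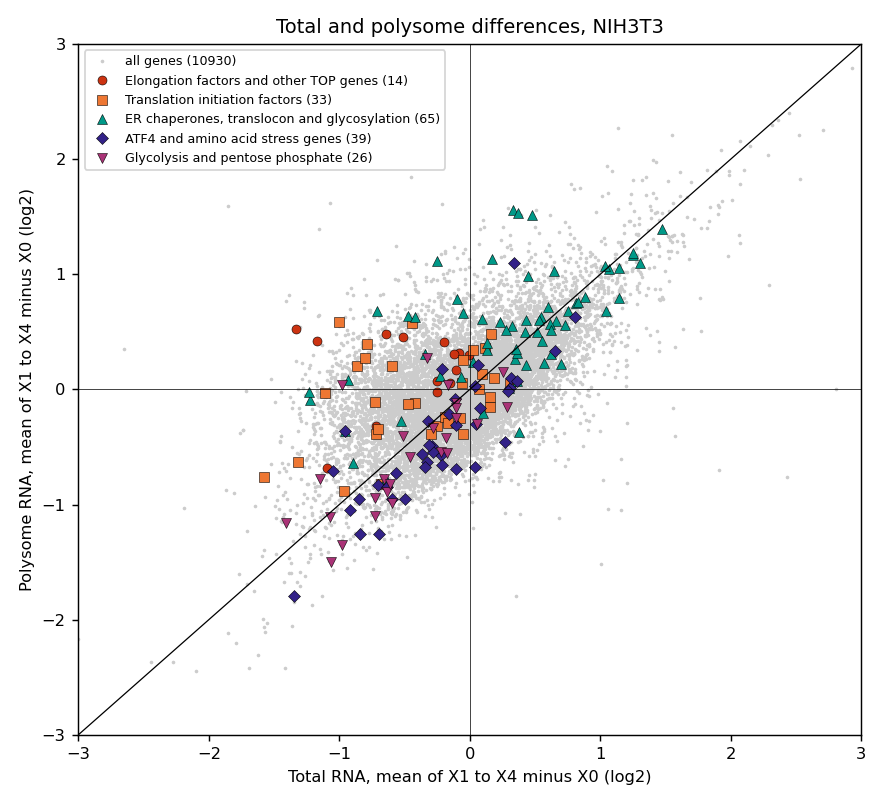
Difference in total RNA (x axis) and in polysome RNA (y axis), mean of X1 to X4 minus X0 in log2, for 10930 genes with a symbol of their own (grey; 9 lie outside the axes) and 5 lists in colour. Genes above the diagonal have higher occupancy at X1 to X4 than at X0: TOP genes and most initiation factors lie above it, most ATF4 and amino acid stress genes below it, and endoplasmic reticulum genes lie mainly in the upper right on both sides of it.

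Immediate early genes respond to serum within minutes. Of 38, 23 were below X0 in occupancy at all 4 levels (60.5%, against 32.6% of all genes) and 4 above (10.5%, against 23.6%). The median difference was -0.27, and no gene passed. The per-level medians were -0.34, -0.16, -0.34 and -0.20 at X1 to X4. Ppp1r15a, encoding the GADD34 subunit of an eIF2-alpha phosphatase, had 23.5, 16.95, 17.4, 15.8 and 18.1 RPKM in polysome RNA and 20.0, 26.2, 25.7, 23.7 and 21.4 RPKM in total RNA from X0 to X4. Polysome RNA was highest and total RNA lowest at X0, and occupancy differed by -0.72 ± 0.20. Dusp1, a phosphatase of MAP kinases, differed by -0.56 ± 0.15 and Zfp36, a destabiliser of AU-rich messenger RNAs, by -0.48 ± 0.15. In polysome RNA 4 fell (10.5%, against 2.48% of all genes), namely Atf3 (-1.69), Dusp6 (-1.41), Jun (-0.99) and Junb (-0.82), and 0 rose. None of these 4 calls passed without X2, and 2 passed without X3 or without X4.

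The genes of ATF4 and amino acid stress cover the transcription factors of the integrated stress response and the amino acid synthesis and transport genes they control. Of 39, 24 lay below X0 in occupancy at all levels (61.5%, against 32.6% of all genes) and 3 above (7.69%, against 23.6%). The median was -0.22, and no gene passed. Ppp1r15a stands in this list and in that of immediate early genes, so the lists overlap. In total RNA 7 fell (17.9%, against 11.9%) and 1 rose (2.56%, against 11.5%), or 4 and 0 without X3. In polysome RNA 6 fell (15.4%, against 2.48%) and 0 rose, with 2 falling without X2, 1 without X3 and 3 without X4.

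Atf4, whose translation depends on upstream open reading frames, had 376, 211, 233, 262 and 237 RPKM in polysome RNA and 340, 346, 370, 342 and 343 RPKM in total RNA from X0 to X4. Its total RNA was level while its polysome RNA was highest at X0 and fell by 0.68 (limma adjusted p = 0.0423, lost without X2, X3 or X4). Occupancy differed by -0.72 ± 0.16. Ddit3, encoding the stress factor CHOP, had 59.0, 15.1, 16.4, 17.8 and 17.6 RPKM in polysome RNA and 66.3, 24.3, 26.0, 26.6 and 26.1 RPKM in total RNA from X0 to X4. Both fractions were highest at X0, with differences of -1.79 in polysome RNA (limma adjusted p = 0.00576) and -1.35 in total RNA (adjusted p = 0.00175). Its occupancy difference was -0.45 ± 0.15. Asns, Sars and Mthfd2 serve amino acid synthesis, tRNA charging and one-carbon metabolism in that order. They fell on polysomes (differences of -0.95, -0.84 and -0.83), with occupancy differences of -0.10 ± 0.22, -0.21 ± 0.16 and -0.12 ± 0.17. The Asns and Mthfd2 calls were lost when any 1 of X1 to X4 was left out, and that of Sars without X2 or X3.

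Some genes of glycolysis and some targets of p53 fell in each fraction. Cdkn1a, encoding the cell cycle inhibitor p21, had 183, 48.8, 42.2, 42.8 and 35.5 RPKM in polysome RNA and 92.1, 35.8, 29.1, 31.1 and 27.0 RPKM in total RNA from X0 to X4. It fell by 2.11 in polysome RNA (limma adjusted p = 0.00576) and in total RNA as well (-1.57, adjusted p = 0.00262), and its occupancy difference was -0.53 ± 0.14. Of 24 p53 targets, 6 fell (25%, against 11.9% of all genes) and 1 rose (4.17%, against 11.5%) in total RNA. On polysomes 3 fell (12.5%, against 2.48%) and 0 rose. Their occupancy was below X0 at all levels in 10 (41.7%, against 32.6%) and above in 7 (29.2%, against 23.6%). Of 26 genes of glycolysis and the pentose phosphate pathway, 12 fell (46.2%) and 0 rose in total RNA. In polysome RNA 9 fell (34.6%) and 0 rose, with 5 falling without X2 or without X3. The differences in total and in polysome RNA were -1.41 and -1.16 for Pgk1, -1.07 and -1.11 for Aldoa, -0.98 and -1.35 for Hk1, and -1.06 and -1.503 for Pfkl. Those 4 enzymes were named after their values were seen. The occupancy median of the glycolysis list was -0.14. In it 11 genes lay below X0 at all levels (42.3%) and 5 above (19.2%), and 17 lay below without X1. One of the 5 above X0 was Pdha1, a pyruvate dehydrogenase subunit, with an occupancy difference of 1.02 ± 0.26 and a total RNA difference of -0.98 (adjusted p = 0.00676).

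Of 33 targets of TGF-beta and YAP, 20 lay below X0 in occupancy at all levels (60.6%, against 32.6% of all genes). Above X0 at all levels were 3 (9.09%, against 23.6%), the median was -0.18, and no gene passed. Id1, a target of BMP signalling, differed by -0.61 ± 0.20, while F3, encoding tissue factor, stood on the other side with 0.94 ± 0.29. Among 27 contractile genes 12 were below (44.4%) and 4 above (14.8%), with a median of -0.12. In that list Flna, the actin crosslinker filamin A, differed by -0.62 ± 0.18 and Zyx, the focal adhesion protein zyxin, by -0.43 ± 0.15. Myh9, the heavy chain of non-muscle myosin, had 65.7, 20.8, 22.2, 30.4 and 37.5 RPKM in polysome RNA and 41.1, 21.9, 23.4, 34.7 and 40.7 RPKM in total RNA from X0 to X4. Total RNA returned to its X0 level at X4 and polysome RNA did not, and occupancy differed by -0.78 ± 0.14 (limma adjusted p = 0.437).

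Some matrix proteins rose in both fractions. Of 49, 16 rose in total RNA (32.7%, against 11.5% of all genes) and 5 fell (10.2%, against 11.9%). In polysome RNA 11 rose (22.4%, against 2.78%) and 3 fell (6.12%, against 2.48%), with 17 rising without X1 and 7 without X2. Occupancy was below X0 at all levels in 25 (51%, against 32.6%) and above in 13 (26.5%, against 23.6%). The median was -0.20. Fbln5, the elastic-fibre protein fibulin-5, rose by 1.66 in total RNA and 1.67 in polysome RNA with an occupancy difference of 0.01 ± 0.14. Lox, the collagen crosslinking enzyme, rose by 0.85 and 1.75, the second lost without X2, X3 or X4, and its occupancy was 1.01, 1.13, 2.38, 2.40 and 1.74 from X0 to X4, a difference of 0.90 ± 0.46. Tgfbi, encoding an adhesion protein induced by TGF-beta, had the steepest fall of the list, with 30.3, 2.14, 2.39, 1.96 and 0.422 RPKM in polysome RNA and 52.0, 3.29, 3.28, 2.19 and 0.153 RPKM in total RNA from X0 to X4. Both fractions were lowest at X4, and the differences were -3.92 and -4.55, both of which passed. Those 3 were named after their values were seen. Bgn, the proteoglycan biglycan, differed in occupancy by 0.64 ± 0.13, Efemp1 by 0.73 ± 0.20 and Col5a1 by -0.51 ± 0.16. Among 51 cell-surface genes, 12 rose (23.5%) and 4 fell (7.84%) in total RNA, or 6 and 2 without X3. In occupancy 22 were below X0 at all levels (43.1%) and 11 above (21.6%). Sdc1, the heparan sulfate proteoglycan syndecan-1, differed by -0.51 ± 0.14 in occupancy and rose by 1.08 in total RNA. Itga5, a fibronectin receptor subunit, differed by -0.48 ± 0.14 and rose by 0.97.

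**Figure D3:**
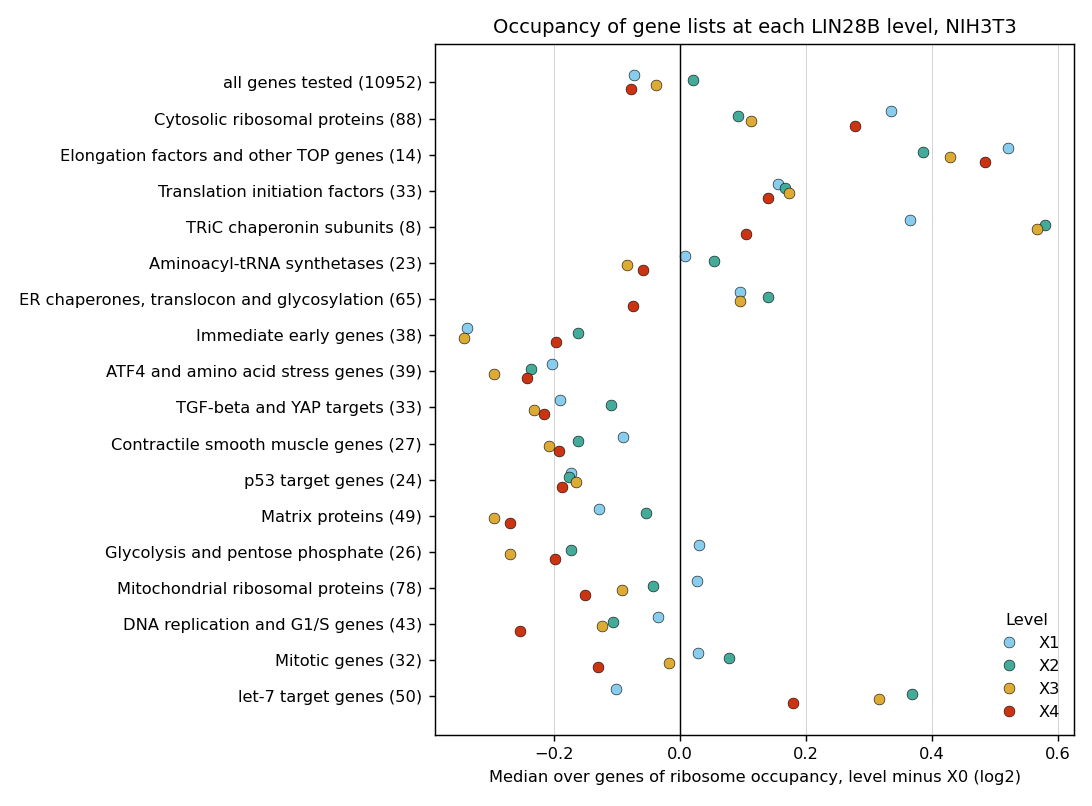
Median over the genes of each list of occupancy at a level minus occupancy at X0, in log2, for X1 to X4 (number of genes in brackets, 1 library pair per level and no error bar). TOP genes, ribosomal proteins and initiation factors are above 0 at every level, immediate early, ATF4, TGF-beta, contractile, p53 and matrix genes below 0 at every level, and let-7 targets are below 0 at X1 and above it at X2 to X4.

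A share of the nuclear genes for mitochondria rose in total RNA, while occupancy medians were near that of all genes. Of 78 mitochondrial ribosomal proteins 13 rose (16.7%) and 2 fell in total RNA, of 36 complex I genes 9 rose (25%) and 0 fell, and of 40 genes of complexes II to V 12 rose (30%) and 1 fell, against 11.5% of all genes that rose. Without X3 those that rose numbered 6 (7.69%), 3 (8.33%) and 5 (12.5%), against 548 of all genes (5%). Occupancy medians were -0.08, -0.05 and -0.04. Mrpl54 differed by -0.40 ± 0.13 in occupancy with a total RNA rise of 0.62, Uqcr11 of complex III by -0.59 ± 0.16 with a rise of 0.49 that was lost without X3, and Ndufb5 of complex I by 0.47 ± 0.14.

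The 13 genes encoded in mitochondrial DNA were described on their own. Their messages are translated inside the organelle, and their occupancy at X0 was low, with a median of -4.25. The per-level medians against X0 were -0.59, 1.33, 1.73 and 0.65 at X1 to X4, the widest range of any list here. Only mt-Co1, encoding subunit I of cytochrome c oxidase, lay above X0 at all 4 levels, and 11 did so without X1, where 4 also fell in total RNA and 2 rose in polysome RNA. mt-Co1 had 202, 178, 345, 424 and 294 RPKM in polysome RNA and 5697, 4866, 4096, 3712 and 4579 RPKM in total RNA from X0 to X4. X0 and X1 were the low pair on polysomes and the high pair in total RNA, and its difference was 0.96 ± 0.53. What share of these polysome reads came from material other than cytosolic polysomes was not tested.

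Some mitotic genes rose in total RNA, while the share of DNA replication genes that rose was nearer to that of all genes. Of 32 mitotic genes 9 rose (28.1%, against 11.5% of all genes) and 0 fell. Of 43 genes of DNA replication 7 rose (16.3%) and 0 fell. Without X3 those that rose numbered 6 (18.8%) and 3 (6.98%), against 5% of all genes. After centring they numbered 15 and 13, while the count over all genes also went up, from 1261 to 1505. Polysome calls were 1 (3.12%) and 0, against 2.78% of all genes that rose. Spc24, a kinetochore protein, rose by 1.49 in total RNA and 1.03 in polysome RNA, the second lost without X2, X3 or X4, and differed in occupancy by -0.46 ± 0.18. Cenpa, the centromeric histone, differed by -0.50 ± 0.14 and rose by 0.76 in total RNA. Mcm5, a subunit of the replicative helicase, rose by 1.32 in total RNA, with an occupancy difference of -0.34 ± 0.24. Top2a differed the other way, by 0.96 ± 0.37. Of 32 histone genes 12 were below X0 in occupancy at all levels (37.5%, against 32.6% of all genes) and 1 above (3.12%, against 23.6%). In total RNA 5 of them rose (15.6%, against 11.5%). Near-identical copies of histone genes make the reads uncertain, and libraries were selected for poly(A) tails, which most replication histones lack.

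The 12 genes with the smallest p and all 4 levels above X0, at a mean of at least 5 RPKM, were Npm1, Eif3e, Oxct1, Prcp, Nol7 and 7 predicted gene models. The models, which may share reads with near-identical copies elsewhere, are Gm5643, Gm10052, Gm14681, Gm13669, Gm7729, Gm5803 and Gm5611, with occupancy differences of 1.09 (Gm7729) to 2.20 (Gm14681). Gm5643 had 15.7, 21.8, 21.8, 24.3 and 22.7 RPKM in polysome RNA and 29.9, 14.7, 13.9, 15.6 and 17.4 RPKM in total RNA from X0 to X4, with no overlap in either fraction (difference 1.45 ± 0.17, limma adjusted p = 0.395). Oxct1, the enzyme that lets tissues use ketone bodies, had 38.6, 44.05, 54.6, 64.7 and 52.5 RPKM in polysome RNA and 47.4, 28.4, 26.3, 34.6 and 32.2 RPKM in total RNA from X0 to X4. Its X0 value was lowest on polysomes and highest in total RNA, a difference of 1.11 ± 0.19. Prcp, a lysosomal carboxypeptidase, differed by 0.85 ± 0.16 and Nol7, a nucleolar protein, by 1.32 ± 0.25. Predicted gene models made up 81 of the 359 genes above X0 by 0.5 or more, 24 of the 174 below and 1339 of all 10952.

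The 12 genes at the lower end included Polr2f, Fxyd1, Myh9, Mustn1, Cdk16, Prrc2a, Raver1, Cox14, Ppdpf and the gene models 1110008P14Rik and RP23-222K15.31. Polr2f, a subunit shared by the 3 nuclear RNA polymerases, had 192, 132, 147, 149 and 136 RPKM in polysome RNA and 118, 180, 195, 181 and 193 RPKM in total RNA from X0 to X4. X0 was the highest on polysomes and the lowest in total RNA, with no overlap, and occupancy differed by -1.11 ± 0.14 (limma adjusted p = 0.395). Total RNA of Polr2f rose by 0.67 (adjusted p = 0.009).

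Mustn1, a small nuclear protein first described in muscle and bone, had 75.0, 86.5, 122, 113 and 116 RPKM in polysome RNA and 59.8, 184, 199, 166 and 202 RPKM in total RNA from X0 to X4. Both fractions were lowest at X0, total RNA by the wider margin with a rise of 1.64 (limma adjusted p = 0.00155), and occupancy differed by -1.11 ± 0.21. Fxyd1, the regulator of the sodium pump called phospholemman, differed by -1.04 ± 0.17 with a total RNA rise of 1.45. Cdk16 (-0.80 ± 0.15) and Prrc2a (-0.77 ± 0.15) had total RNA differences of 0.04 and 0.17, and neither passed in polysome RNA. Raver1, a partner of the splicing repressor PTB (-0.70 ± 0.15), Cox14, an assembly factor of cytochrome c oxidase (-0.68 ± 0.14), and Ppdpf (-0.65 ± 0.14) had total RNA rises of 0.52, 0.66 and 0.41 and polysome differences of -0.17, -0.02 and -0.24. The Raver1 rise was lost without X3 and the Ppdpf rise without X1, X2 or X3. Igfbp4, an inhibitor of insulin-like growth factors listed with the insulin and mTOR pathway, had an occupancy difference of -0.91 ± 0.21, and Tsc2, the brake on mTORC1, one of -0.60 ± 0.18.

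Targets of let-7 did not share one direction. Of 50, 15 were above X0 in occupancy at all levels (30%, against 23.6% of all genes) and 10 below (20%, against 32.6%). The median was 0.16, and 27 were above without X1. The per-level medians were -0.10, 0.37, 0.32 and 0.18 at X1 to X4. In total RNA 3 rose (6%, against 11.5% of all genes) and 6 fell (12%, against 11.9%), among them Igf1r (1.003) and Ccnd1 (-0.89). In polysome RNA 0 rose and 1 fell (2%, against 2.48%), or 2 and 0 after centring and 3 and 0 without X1. Pgrmc1 differed in occupancy by 0.96 ± 0.31.

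Of the genes most often tied to LIN28B, Igf2bp2, an RNA-binding protein of growth control, had 9.71, 8.82, 13.1, 19.3 and 13.8 RPKM in polysome RNA and 7.86, 5.84, 5.11, 6.69 and 7.11 RPKM in total RNA from X0 to X4. Its polysome RNA was below X0 at X1 and highest at X3, and occupancy differed by 0.76 ± 0.35. Hmga2, a chromatin protein and a classic let-7 target, had 8.04, 5.63, 9.32, 15.9 and 14.4 RPKM in polysome RNA and 5.11, 5.201, 3.77, 5.48 and 7.96 RPKM in total RNA from X0 to X4. Its occupancy was 0.61 at X0 and 0.10, 1.20, 1.46 and 0.82 at X1 to X4, so X1 lay below X0 and the others above, and the difference was 0.29 ± 0.47. Igf2bp3 differed by 0.52 ± 0.40, Igf2bp1 by -0.27 ± 0.28, Dicer1, the ribonuclease that makes mature microRNAs, by 0.45 ± 0.31, Ccnb1 by -0.02 ± 0.24 and Cdk4 by -0.14 ± 0.16. In these 7 genes the one call in any fraction was a rise of Cdk4 total RNA by 0.34 (limma adjusted p = 0.0353, lost without X2 or X3). Igf2 was under 1 RPKM on average.

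Averaged over X1 to X4, the occupancy difference varied little with gene length, as implied by the RPKM values. In 5 equal bins of length the median occupancy difference was 0.03 for the shortest genes, between -0.07 and -0.05 for the 3 bins in the middle and 0.01 for the longest. The fractions varied more, with total RNA medians of 0.16 for the shortest and -0.25 for the longest genes and polysome medians of 0.20 and -0.18. Single levels also differed: against X0 the longest genes had occupancy medians of -0.12, 0.15, 0.06 and -0.08 at X1 to X4. Occupancy itself did vary with length, with a median at X0 of -0.08 for the shortest genes and 0.57 to 0.80 in the other bins. The shortest bin held 100 of the 359 genes above X0 by 0.5 or more and 62 of the 174 below.

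In human HEK293A cells, a kidney-derived line taken through the same 5 levels, the same contrast was available for 7249 genes matched by symbol. In the human table no total RNA value is under 1 RPKM. No gene's difference between the lines passed, with 0 of 7249 past an adjusted p of 0.05 in limma (0%) and a smallest adjusted p of 0.815. At an unadjusted p under 0.05 the difference was higher in NIH3T3 for 194 genes and lower for 54, and with libraries centred on their trimmed means for 102 and 170. The lines were not scaled to each other: the median difference over shared genes was -0.04 in NIH3T3 and -0.26 in HEK293A, a gap of 0.28 in the gene-wise median that centring reduced to 0.07. HEK293A alone had 1 called gene of 11125 (0.00899%), HIST1H2BJ, one of many near-identical histone genes. Leaving out X2 or X3 gave 1 called difference between the lines, Hist1h4h, again a histone gene.

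Set side by side, the TOP genes shared by both lines had medians of 0.42 in NIH3T3 and 0.40 in HEK293A, and the ribosomal proteins 0.21 and 0.39. Occupancy at X0 itself differed between the lines for the ribosomal proteins named above. For Rpl23, Rps4x and Rpl30 it was -2.09, -2.86 and -2.09 in NIH3T3 and 0.89, 0.72 and 0.96 in HEK293A. The cause was not tested. Immediate early genes had -0.24 and -0.62, ATF4 and amino acid stress genes -0.22 and -0.55, and TGF-beta and YAP targets -0.20 and -0.59, which lie below the all-gene medians of both lines. Initiation factors had 0.30 in NIH3T3 and -0.01 in HEK293A, and let-7 targets 0.21 and -0.21, which lie above the all-gene medians of both lines. Among single genes Npm1 differed by 1.86 in NIH3T3 and 0.83 in HEK293A and Eif3e by 1.59 and 1.01. Hspa5 had 1.22 and -0.43, Pdia3 1.04 and -0.05, Polr2f -1.11 and 0.01, and Atf4 -0.72 and -0.06, and none of these differences between lines passed (limma adjusted p = 0.815 for each).

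**Figure D4:**
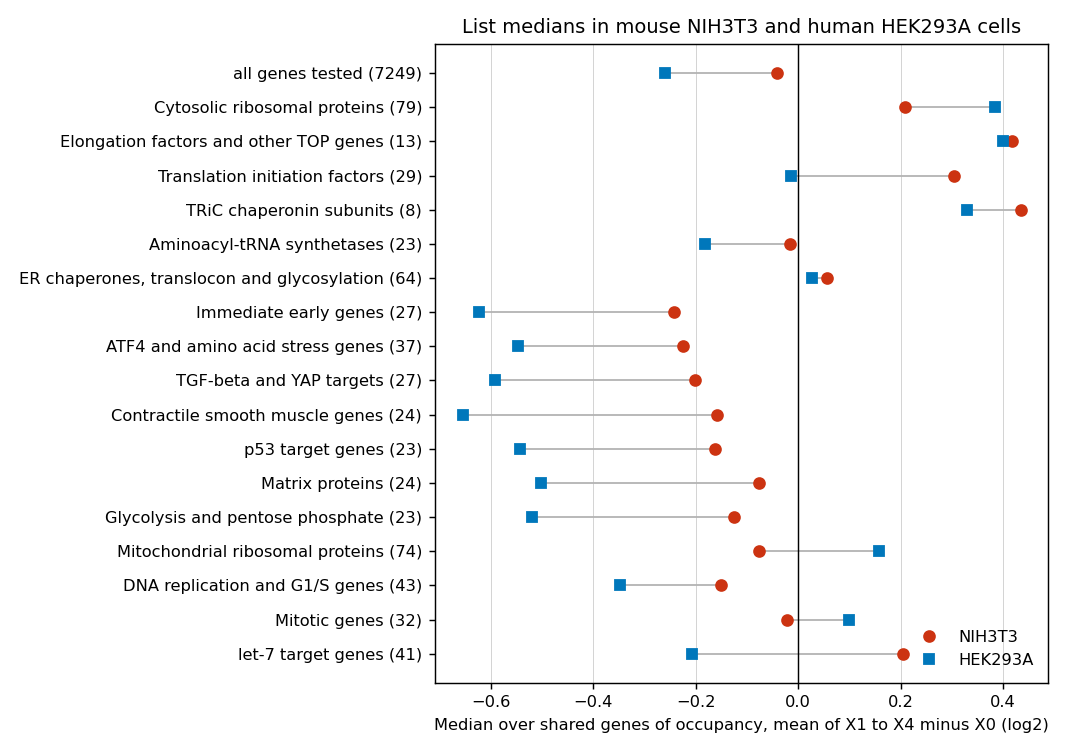
Median over shared genes of the occupancy difference, mean of X1 to X4 minus X0 in log2, in NIH3T3 (circles) and HEK293A (squares), with the number of shared genes in brackets and no error bar. The all-gene median is -0.04 in NIH3T3 and -0.26 in HEK293A; TOP genes, ribosomal proteins and let-7 targets lie above it in both lines, and the immediate early, ATF4 and TGF-beta lists below it in both.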

How the data were processed

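RPKM values for NIH3T3 polysome and total RNA were deposited by the authors in 1 table of 41128 genes, and for HEK293A in another of 11342 genes. Raw counts were deposited by the authors for small RNA libraries and were not analysed here. The builds mm10 and hg19 and the tools STAR and cutadapt are named in the submitters' processing notes, without the role of each; the strand setting and annotation were not found in the sources used here. RPKM values fell on whole-read steps within 0.02 for 21038 of 21042 genes above 0 (99.98%), and these reads gave the depths and the count test.

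Differences of log2(RPKM + 0.5) were fitted with limma 3.58.1 (trend on the mean log2 value, X1 to X4 against X0) in R 4.3.3, for genes averaging 1 RPKM or more, with Benjamini-Hochberg adjustment and a threshold of 0.05. edgeR 4.0.16 was the alternative on recovered reads. The lines were compared with an interaction term. Rows that share a symbol (132) stayed in the fits and out of the lists. Named genes were the 12 strongest each way at a mean of at least 5 RPKM, up to 3 members of smallest p per list (left out for lists that are only counted), and LIN28 and let-7 genes fixed by name. Members and lists were chosen with earlier results of these data known. On simulated data limma recovered 16% of genes changed by 1 log2 and 92% of those changed by 2 log2, and edgeR 36% and 94%. False calls numbered 6 with limma and 4 with edgeR. Alternatives were pseudocounts of 0.1 and 1, other filters, libraries centred on their trimmed means (0.1 trimmed at each end), quantile normalization, no variance trend and leaving out each of X1 to X4. Some genes that the naming rule takes in are not reported here.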

Additional observations from a re-analysis of the deposited data

Results flagged for a closer look

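Among the 104 genes looked at, the occupancy of 4 had 1 level of X1 to X4 far from the other 3, by a gap that exceeded Dixon's 95% critical value as a share of the group's range. Chance flags about 1 in 20 groups. For Rps25 the gap was 0.938 of the range, with -1.85 at X1 and -2.07, -2.09 and -2.07 at X2 to X4. For Mrpl54 it was 0.868, with -0.19 at X1 and -0.25 at each of X2 to X4. For Pgk1 it was 0.832, with 0.35 at X1 and 0.17, 0.19 and 0.16 at X2 to X4. For Ppp1r15a it was 0.830, with -0.23 at X4 and -0.61, -0.55 and -0.57 at X1 to X3.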

How the results depend on the processing

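No paired analysis was possible because each level and fraction has 1 library, so no 2 groups share more than 1 replicate number; occupancy itself pairs the fractions of a level. Occupancy calls stayed at 0 under every alternative but one: without the filter on low values there were 179 of 21042 genes. The smallest adjusted p ran from 0.195 (quantile normalization) to 0.662 over the other alternatives. Leaving out a level gave 0 calls in occupancy, 995 to 3104 in total RNA, 132 to 587 in polysome RNA and 0 to 1 between the lines. Polysome calls were 1066 without the filter and 229 without the variance trend. Genes with all kept levels above X0 by 0.5 or more numbered 382 to 925 when a level was left out, and those below 222 to 304. Occupancy differences of the genes named kept their sign without passing in 1222 of 1239 settings. Where all 4 levels of a gene lie on one side of X0, leaving out a level cannot turn its sign. Many genes were named for that, so this count was in part fixed in advance. Of the other settings 4 passed without the filter (Gm5643, Gm10052, Polr2f and Myh9), and 13 turned sign, all near 0. With a pseudocount of 1 these were Ccnb1 (0.0094) and Atf3 (-0.068), with quantile normalization Atf3 (-0.12) and Mthfd2 (0.0064), and in the count test Fbln5 (-0.050). With a level left out the range was -0.078 to 0.067 for Ccnb1, -0.097 to 0.118 for Atf3, -0.097 to 0.019 for Aldoa, -0.020 to 0.033 for Fbln5 and -0.044 to 0.156 for Ccnd1; the cause was not tested. List medians moved by less than the standard deviation of their 4 per-level medians in 246 of 259 settings. The levels left out in turn themselves set that limit, so for those settings the count is a weak check. Initiation factors, whose per-level medians lay close together, went past it, from 0.30 to 0.25 without X1. Depth was 15.2 M recovered reads or more in every library, and X0 had 1 library per fraction.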
